A study of Mus musculus with 6 samples.

Results

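The 10 genes described here encode a set of nuclear receptors and their cofactors. They are the PPAR receptors *Ppara*, *Pparg*, and *Ppard*, their RXR partners *Rxra* and *Rxrg*, the estrogen-related receptors *Esrra* and *Esrrg*, the PGC1 coactivators *Ppargc1a* and *Ppargc1b*, and the corepressor gene *Nrip1*. They were taken by gene symbol from a deposited table of 55491 genes, and each symbol matched 1 row. The table holds RNA-seq of inguinal white adipose tissue (IWAT) from 6 male mice aged 4 weeks and fed regular chow, 3 of them wild-type (*Ebf2*+/+) and 3 heterozygous for a knock-in of the nonsense variant *Ebf2* p.E165X (*Ebf2* E165X/+), with 1 library per mouse. The labels give C57BL/6J as the background of both genotypes. The allele was made by CRISPR/Cas9 in zygotes of hybrid mice and was inherited through the germline, so no cell type of the tissue was without it. *Ebf2* encodes a transcription factor of adipocyte precursors and of brown and beige fat cells. The study asked what the variant does to the transcriptome of this depot at a young age, and the comparison here is between the genotypes.

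PPAR receptors are switched on by fatty acids and their derivatives, and they bind DNA as heterodimers with an RXR. *Pparg* drives the formation and lipid storage of fat cells, *Ppara* is best known for genes of fatty acid oxidation in liver, heart, and brown fat, and *Ppard* is found in most tissues. ERR receptors have no known natural hormone and depend on PGC1 proteins, which carry no DNA-binding domain of their own and raise the transcription of mitochondrial genes through the receptors they bind. *Nrip1* encodes RIP140, which binds many of the same receptors and represses oxidative genes in fat.

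*Ppara*, the gene of this group with the largest genotype difference, is transcribed from the plus strand of chromosome 15 (GRCm38, chr15:85734983-85802819). Its promoter is shown because of that difference. The window reaches from 250 bases before to 50 bases after the RefSeq start (GRCm38.p6, chr15:85735526-85735825, plus strand), with the only match to the searched motifs in capitals.
Ppara promoter: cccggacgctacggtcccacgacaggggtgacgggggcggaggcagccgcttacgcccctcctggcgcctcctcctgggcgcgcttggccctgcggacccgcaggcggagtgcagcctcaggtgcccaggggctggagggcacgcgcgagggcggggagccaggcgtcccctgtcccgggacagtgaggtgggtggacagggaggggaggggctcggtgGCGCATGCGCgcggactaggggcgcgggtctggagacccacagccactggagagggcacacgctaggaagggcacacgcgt
The capitals mark the palindrome bound by the factor NRF1, which begins 31 bases before the start site. It occurred in 0.971% of the 32851 promoter windows of this length in the same RefSeq table. Windows were listed for 9 of the 10 genes, 17 windows in all. The direct repeat of PPAR and RXR dimers (AGGTCA repeated after 1 base), the ERR site TCAAGGTCA, the EBF palindrome (TCCC and GGGA with 2 bases between them), and the cyclic AMP element TGACGTCA were searched on both strands and matched none of the 17, against 0.0396%, 0.423%, 0.904%, and 1.79% of all windows. The single hexamer AGGTCA, which is part of the first pair of motifs, was found in windows of *Pparg*, *Rxra*, and *Rxrg* and in 16.3% of all windows. These are matches of letters in short windows and not binding sites.

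The libraries held 106820505 to 135039488 counts each. *Ebf2* had 38.3, 41.3, and 37.2 CPM (counts scaled to a common library size with TMM factors) in *Ebf2*+/+ mice and 22.8, 22.9, and 21.1 CPM in *Ebf2* E165X/+ mice, so the labels and the level of the targeted gene went together. The third *Ebf2* E165X/+ library stood apart. The 16 genes listed as skeletal muscle markers, led by *Myh4*, a myosin of fast fibres, took 4.83% of its counts, against 0.390% and 0.0950% in the other *Ebf2* E165X/+ libraries and 0.210%, 0.873%, and 0.337% in the *Ebf2*+/+ libraries, in order of mouse number. None of the 16 was at 0 in every library. White adipocyte markers, led by *Fabp4*, took 0.960% of counts in that library and 1.44% to 1.74% in the other 5. Skeletal muscle also uses several of the genes described here, so the fold change of each of the 10 genes and the median of each pathway list are given with and without that mouse. In bulk tissue, fewer cells of a type and less RNA per cell cannot be told apart.

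*Ppara* and *Ppargc1b* were the members of the group that were lower in every *Ebf2* E165X/+ mouse than in every *Ebf2*+/+ mouse. *Esrra* was lower on average with a small overlap, and *Pparg* was low in 2 of the 3 *Ebf2* E165X/+ mice. *Esrrg*, *Rxrg*, and *Ppargc1a* were highest of all in the *Ebf2* E165X/+ library rich in skeletal muscle markers and lowest in the other *Ebf2* E165X/+ libraries. *Ppard* and *Rxra* in *Ebf2* E165X/+ mice had 104% and 95.1% of the mean wild-type level, and *Nrip1* varied widely within both genotypes. None of the 10 genes was called by edgeR's quasi-likelihood test, where a call asks for a Benjamini-Hochberg adjusted *P* under 0.05 over all 32664 genes tested and a fold change above 1.5, against a background of 0.00918% of genes called and 0.00306% called lower. In edgeR's fit 8 of the 10 were lower, as were 47.9% of all genes and 43.9% of genes with 10 or more counts in each library. An unadjusted *P* under 0.05 was reached by 3 of the 10, all of them lower. The background at this level was 4.77% of genes, with 3.09% lower, or 4.21% lower among genes with 10 or more counts in each library. DESeq2 called 1 of the 10 (background 0.61%). The limma-voom test called 0 of the 10 and 4 genes of the whole table. Genotypes did not overlap for 2 of the 10, both lower, while among genes with 10 or more counts in each library 6.78% were lower and 6.66% higher without overlap.

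**Figure D1:**
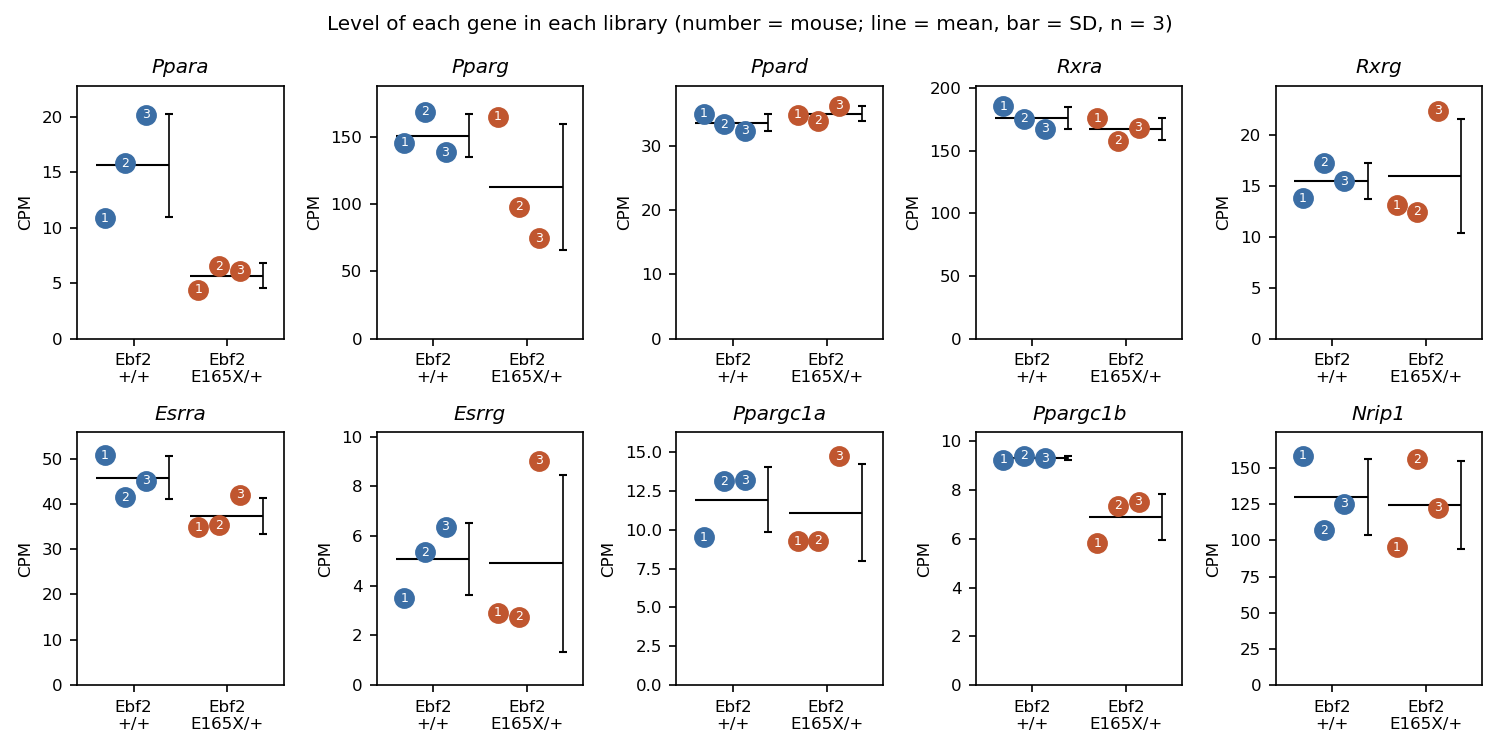
CPM of the 10 genes in each library, with the mouse number in each point, a line at the mean, and a bar for the SD (n = 3 mice per genotype). All 3 *Ebf2* E165X/+ points lie below the *Ebf2*+/+ points for *Ppara* and *Ppargc1b*, and mouse 3 of *Ebf2* E165X/+ is the highest point for *Esrrg*, *Rxrg*, and *Ppargc1a*.

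*Ppara* (ENSMUSG00000022383) had 10.9, 15.8, and 20.2 CPM in *Ebf2*+/+ mice and 4.39, 6.52, and 6.11 CPM in *Ebf2* E165X/+ mice. The lowest wild-type mouse was above the highest heterozygote, and the spread among wild-type mice was wide. The means were 15.6 ± 4.67 and 5.67 ± 1.13 CPM (SD, n = 3 mice), so that *Ebf2* E165X/+ tissue had 36.3% of the wild-type level. The log2 fold change was −1.46 (SE 0.244), and edgeR gave an unadjusted *P* of 0.000468 and an adjusted *P* of 0.377, whereas the adjusted *P* of DESeq2 was 6.34e-07. Without the third *Ebf2* E165X/+ mouse, the value was −1.52 (SE 0.269, edgeR adjusted *P* = 0.263). In the library rich in muscle markers, *Ppara* lay between the other *Ebf2* E165X/+ libraries.

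*Pparg* (ENSMUSG00000000440) had 146, 169, and 139 CPM in *Ebf2*+/+ mice and 165.2, 98.2, and 74.9 CPM in *Ebf2* E165X/+ mice. The first *Ebf2* E165X/+ mouse lay within the wild-type range, and the other 2 lay below it. The log2 fold change of −0.42 (SE 0.264, edgeR adjusted *P* = 0.783) became −0.20 (SE 0.202, edgeR adjusted *P* = 0.861) without the third *Ebf2* E165X/+ mouse and −0.81 without the first. The library with the lowest *Pparg* was also the one with the lowest share of white adipocyte markers, and the part of that share in the *Pparg* value was not tested. The counts do not separate the isoforms of *Pparg*.

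*Ppard* (ENSMUSG00000002250) had 34.95, 33.4, and 32.3 CPM in *Ebf2*+/+ mice and 34.8, 33.9, and 36.2 CPM in *Ebf2* E165X/+ mice. Its log2 fold change of 0.059 (SE 0.0678, edgeR adjusted *P* = 0.81) had the smallest SE of the group and was 0.033 (SE 0.0712) without the third *Ebf2* E165X/+ mouse. Within each library, the counts of *Ppara* were 0.311, 0.474, and 0.624 times those of *Ppard* in *Ebf2*+/+ mice and 0.126, 0.192, and 0.169 times in *Ebf2* E165X/+ mice. With *Ppard* close in both genotypes, this ratio restates the difference in *Ppara*. The ratio of *Ppara* to *Pparg* counts overlapped, as it was 0.0744 in the lowest wild-type mouse and 0.0816 in the third *Ebf2* E165X/+ mouse.

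*Rxra* (ENSMUSG00000015846), the main RXR gene of fat by counts, had 186, 176, and 168 CPM in *Ebf2*+/+ mice and 176, 158, and 169 CPM in *Ebf2* E165X/+ mice. The genotypes overlapped, with a log2 fold change of −0.073 (SE 0.0846, edgeR adjusted *P* = 0.811), or −0.078 (SE 0.0942) without the third *Ebf2* E165X/+ mouse. *Rxrg* (ENSMUSG00000015843), a partner found in muscle, brain, and brown fat, had 13.8, 17.3, and 15.5 CPM in *Ebf2*+/+ mice and 13.1, 12.5, and 22.4 CPM in *Ebf2* E165X/+ mice. The first pair of *Ebf2* E165X/+ mice lay below all wild-type mice and the third above them. Its log2 fold change of 0.042 (SE 0.228, edgeR adjusted *P* = 0.974) turned to −0.28 (SE 0.123, edgeR adjusted *P* = 0.861) without the third *Ebf2* E165X/+ mouse. The third RXR gene, *Rxrb*, which is expressed in most cells, had 41.6 ± 2.33 CPM in *Ebf2*+/+ and 42.2 ± 1.55 CPM in *Ebf2* E165X/+ mice (SD, n = 3 mice).

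*Esrra* (ENSMUSG00000024955), the most abundant ERR gene, had 50.8, 41.4, and 45.1 CPM in *Ebf2*+/+ mice and 34.8, 35.2, and 42.0 CPM in *Ebf2* E165X/+ mice. Only the third *Ebf2* E165X/+ mouse reached the wild-type range. The log2 fold change was −0.29 (SE 0.106), and edgeR gave an unadjusted *P* of 0.0262 and an adjusted *P* of 0.783. Without that mouse it was −0.39 (SE 0.0938), with an adjusted *P* of 0.48 in edgeR and 0.0382 in DESeq2, and it stayed under the 1.5-fold limit of a call. The gene *Trmt112* overlaps *Esrra* on the opposite strand in the GENCODE M21 annotation (GRCm38) and had 19193 counts over the 6 libraries against 29861 for *Esrra*. Whether strand was used in counting is not given in the sources used here, so some counts may belong to the neighbour.

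*Esrrg* (ENSMUSG00000026610), an ERR of oxidative muscle and brown fat, had 3.50, 5.35, and 6.37 CPM in *Ebf2*+/+ mice and 2.91, 2.75, and 9.03 CPM in *Ebf2* E165X/+ mice. As with *Rxrg*, the first pair of *Ebf2* E165X/+ mice lay below the wild-type range and the third above it. The log2 fold change was −0.051 (SE 0.477, edgeR adjusted *P* = 0.995) over 6 libraries and −0.84 (SE 0.264, unadjusted *P* = 0.0152, edgeR adjusted *P* = 0.787) without the third *Ebf2* E165X/+ mouse. Leaving out the first or the second *Ebf2* E165X/+ mouse instead turned it to 0.21 or 0.24, and leaving out the third *Ebf2*+/+ mouse turned it to 0.12. *Esrrb*, the third ERR gene, had 0.253 ± 0.0918 CPM in *Ebf2*+/+ mice (SD, n = 3 mice), and 0.216, 0.144, and 1.76 CPM in *Ebf2* E165X/+ mice.

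*Ppargc1b* (ENSMUSG00000033871), which encodes PGC1-beta, a coactivator of mitochondrial and lipid genes, had 9.25, 9.41, and 9.30 CPM in *Ebf2*+/+ mice and 5.82, 7.35, and 7.52 CPM in *Ebf2* E165X/+ mice. All *Ebf2* E165X/+ mice lay below the narrow wild-type range. The means were 9.32 ± 0.0833 and 6.90 ± 0.933 CPM (SD, n = 3 mice), a log2 fold change of −0.43 (SE 0.134), for which edgeR gave an unadjusted *P* of 0.013 and an adjusted *P* of 0.783. With DESeq2 the adjusted *P* was 0.0907. Without the third *Ebf2* E165X/+ mouse the value was −0.50 (SE 0.150), with an adjusted *P* of 0.724 in edgeR and 0.0262 in DESeq2, again under the 1.5-fold limit of a call.

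*Ppargc1a* (ENSMUSG00000029167), which encodes PGC1-alpha, the coactivator induced by cold in fat and by exercise in muscle, had 9.53, 13.1, and 13.2 CPM in *Ebf2*+/+ mice and 9.28, 9.31, and 14.7 CPM in *Ebf2* E165X/+ mice. The first *Ebf2*+/+ mouse was close to the first pair of *Ebf2* E165X/+ mice, and the third *Ebf2* E165X/+ mouse was above all others. For *Ppargc1a* the log2 fold change was −0.11 (SE 0.218, edgeR adjusted *P* = 0.913) over 6 libraries and −0.36 (SE 0.166, edgeR adjusted *P* = 0.861) without that mouse. It turned to 0.0079 or 0.0062 without the first or the second *Ebf2* E165X/+ mouse. Another gene of the family went the other way. *Pprc1*, the PGC1-related coactivator, was higher without overlap, at 30.9, 34.3, and 31.0 CPM in *Ebf2*+/+ mice and 36.5, 39.5, and 38.2 CPM in *Ebf2* E165X/+ mice (log2 fold change 0.25, SE 0.0739, edgeR adjusted *P* = 0.783). *Perm1*, an ERR and PGC1 cofactor of muscle, was like *Ppargc1a* highest in the third *Ebf2* E165X/+ mouse, at 45.0 CPM against 3.01 to 9.26 CPM in the other 5 mice, and its log2 fold change of 1.49 (SE 0.937) turned to −0.67 (SE 0.403) without that mouse. Of 9 nuclear receptor genes listed, 5 were lower and 4 higher over 6 libraries (median log2 fold change −0.051), and 8 were lower without the third *Ebf2* E165X/+ mouse (median −0.28). Of 4 genes listed with the PGC1 family and its ERR cofactors, 2 were lower and 2 higher over 6 libraries (median 0.071), and 3 were lower without that mouse (median −0.43). Both lists include genes of the group described here, so their counts and medians in part restate the values above. Of all genes tested, 47.9% were lower over 6 libraries and 51.1% without that mouse.

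*Nrip1* (ENSMUSG00000048490) had 158, 107, and 125 CPM in *Ebf2*+/+ mice and 95.3, 156, and 123 CPM in *Ebf2* E165X/+ mice. The ranges of the genotypes lay almost on top of each other. Between them the log2 fold change was −0.062 (SE 0.203, edgeR adjusted *P* = 0.948), and it turned to 0.088 without the first *Ebf2*+/+ mouse and 0.098 without the first *Ebf2* E165X/+ mouse. It was −0.050 (SE 0.225) without the third *Ebf2* E165X/+ mouse. The count ratio of *Ppargc1b* to *Nrip1* was 0.0735 ± 0.0149 in *Ebf2*+/+ and 0.0565 ± 0.00817 in *Ebf2* E165X/+ mice (SD, n = 3 mice). These ratios overlapped, as did those of *Ppargc1a* to *Nrip1*, at 0.0961 ± 0.0324 and 0.0924 ± 0.0306.

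**Figure D2:**
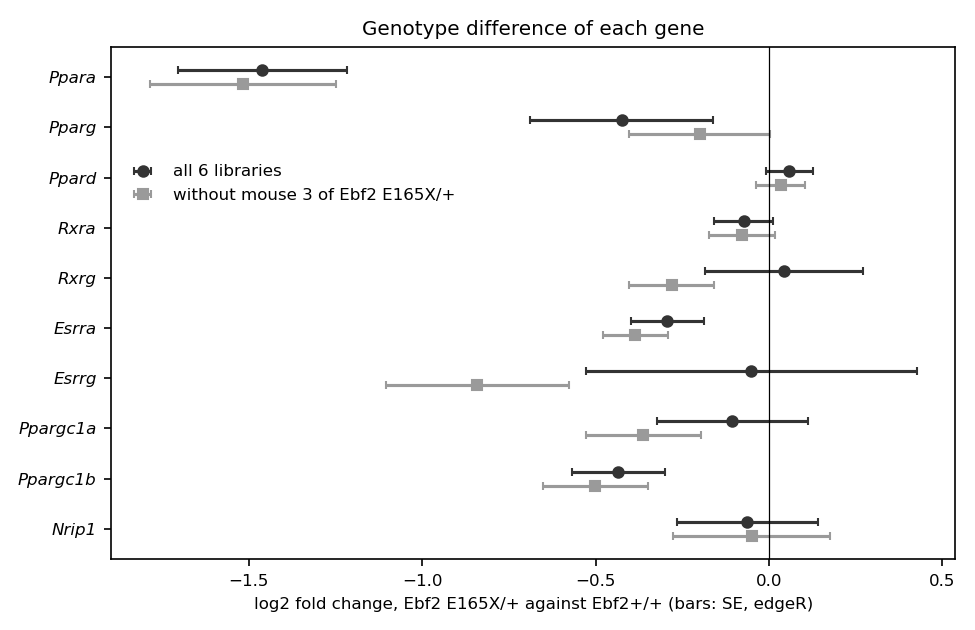
Log2 fold changes of *Ebf2* E165X/+ against *Ebf2*+/+ mice from edgeR, with bars for the SE, for all 6 libraries (dark circles) and without the third *Ebf2* E165X/+ mouse (grey squares). *Ppara* lies near −1.5 in both fits, while *Esrrg* moves from −0.051 to −0.84, *Rxrg* from 0.042 to −0.28, and *Ppargc1a* from −0.11 to −0.36.

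*Esrrg*, *Rxrg*, and *Ppargc1a* went with the skeletal muscle marker share at its extremes but not throughout. The library with the largest share had the most of all 3 genes, and the library with the smallest share, that of the second *Ebf2* E165X/+ mouse, had the least *Esrrg* and *Rxrg*. Among wild-type mice the order was not the same throughout, since the second mouse had the largest muscle marker share and the third had the most *Esrrg* and *Ppargc1a*. Between the genotypes, the first *Ebf2* E165X/+ mouse had a larger muscle marker share than the first and the third *Ebf2*+/+ mice and yet less of all 3 genes. *Ppara* was not highest in the library with the largest share. The part of muscle RNA in the levels of these genes was not tested. Leaving out the third *Ebf2* E165X/+ mouse did not balance the genotypes either, as all 16 muscle markers were then lower in *Ebf2* E165X/+ mice, with a median log2 fold change of −1.02 and none at an unadjusted *P* under 0.05 in edgeR. Over 6 libraries their median was 1.96, all 16 were higher, and none reached that level. In the fit without this mouse, 9 of the 10 genes were lower (background 51.1%, or 47.8% of genes with 10 or more counts in each library), and 4 had an unadjusted *P* under 0.05 and were lower (background 3.54%), namely *Ppara*, *Esrra*, *Esrrg*, and *Ppargc1b*. edgeR again called none of them.

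**Figure D3:**
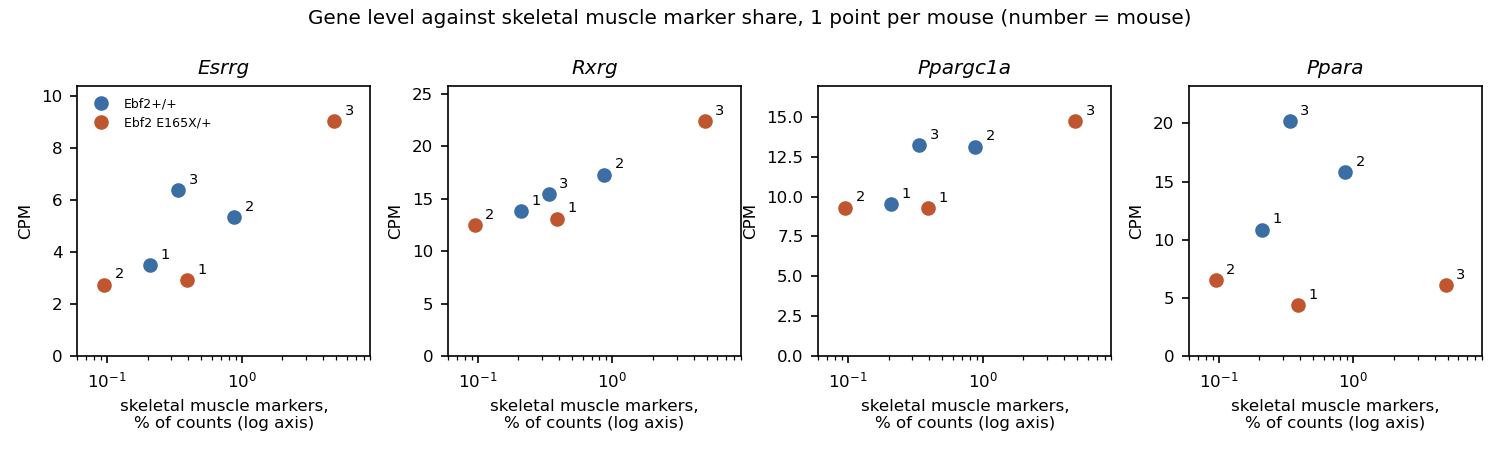
CPM of *Esrrg*, *Rxrg*, *Ppargc1a*, and *Ppara* (linear axis) against the share of counts taken by 16 skeletal muscle markers (log axis), 1 point per mouse with its number. Mouse 3 of *Ebf2* E165X/+, at 4.83%, has the most *Esrrg*, *Rxrg*, and *Ppargc1a*, whereas its *Ppara*, at 6.11 CPM, is close to that of the other *Ebf2* E165X/+ mice.

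To compare levels between genes, CPM was divided by the length of all exons of the gene in GENCODE M21. On this scale of CPM per kilobase, *Ebf2*+/+ tissue had the most *Pparg* (51.2 ± 5.36), followed by *Rxra* (32.3 ± 1.65), *Nrip1* (11.4 ± 2.28), *Esrra* (10.4 ± 1.07), *Rxrg* (6.76 ± 0.763), *Ppard* (4.47 ± 0.175), *Ppara* (4.07 ± 1.22), *Ppargc1b* (2.34 ± 0.0209), *Ppargc1a* (1.81 ± 0.319), and *Esrrg* (0.817 ± 0.234; SD, n = 3 mice). *Nrip1* and *Esrra*, and *Ppard* and *Ppara*, were neighbours within their spread. In *Ebf2* E165X/+ tissue the order was the same except for *Ppara*, which at 1.48 ± 0.295 CPM per kilobase came after *Ppargc1b* (1.73 ± 0.234) and *Ppargc1a* (1.69 ± 0.476) and within their spread. Its former neighbour *Ppard* was at 4.65 ± 0.155. *Pparg* (38.2 ± 15.9) and *Rxra* (30.7 ± 1.65) lay within their spread in *Ebf2* E165X/+ tissue, as did *Nrip1* (10.9 ± 2.66), *Esrra* (8.51 ± 0.914), *Rxrg* (6.96 ± 2.42), and *Ppard*, each with the next, so this order is firm for few of the neighbours. The study's methods describe libraries of the 3′ ends of mRNA, for which counts do not grow with length, while the labels name another kit, so this order is uncertain where the lengths differ much.

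Genes that these receptors and coactivators are known to control were next examined in 3 lists. Over 6 libraries the lists for *Ppara* and fatty acid oxidation, for *Pparg* in adipocytes, and for ERR and PGC1 in mitochondria had median log2 fold changes of −0.46, −0.28, and −0.36, beside 0.014 for all genes tested. The lists of corepressors and coactivators and of mitochondrial biogenesis factors had medians of 0.039 and 0.0020. Of the 152 genes in all pathway lists other than the 10 described above, edgeR called 0, while 114 were lower in its fit (background 47.9%), 51 were lower and 2 higher at an unadjusted *P* under 0.05 (backgrounds 3.09% and 1.68%), and 49 were lower without overlap of the genotypes (background 6.78%). DESeq2 called 16, all lower (background 0.535%). The limma-voom test called 1, *Hadhb*, and 4 genes in the whole table. These genes were listed with earlier results of the same data known.

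Among 35 genes of fatty acid oxidation and other *Ppara* targets, 30 were lower (background 47.9%), 19 of them at an unadjusted *P* under 0.05 (background 3.09%), and 1, *Cpt1a*, was higher at that level. When the third *Ebf2* E165X/+ mouse was left out, 30 were lower (background 51.1%), 17 of them at that level (background 3.54%), with a median of −0.39. *Acaa2*, a thiolase of mitochondrial beta-oxidation, had 199, 239, and 199 CPM in *Ebf2*+/+ mice and 108, 98.4, and 119 CPM in *Ebf2* E165X/+ mice (log2 fold change −0.97, SE 0.111, edgeR adjusted *P* = 0.119). *Hadhb*, a subunit of the trifunctional protein, had 500, 488, and 451 CPM and then 278, 273, and 281 CPM (log2 fold change −0.79, SE 0.0954, edgeR adjusted *P* = 0.135). For both genes the genotypes lay far apart relative to the spread within them. *Eci1*, an isomerase for unsaturated fatty acids, and *Slc25a20*, the carnitine carrier of the inner membrane, had log2 fold changes of −0.74 (SE 0.0835) and −0.63 (SE 0.0749) without overlap of the genotypes. *Acsl1*, the most abundant gene of the list, was at 1761 ± 138 and 1537 ± 488 CPM (SD, n = 3 mice) and overlapped.

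The carnitine palmitoyltransferases, which load fatty acids for entry into mitochondria, had different patterns. *Cpt1b*, the form of muscle and brown fat, had 29.2, 46.9, and 42.5 CPM in *Ebf2*+/+ mice and 8.16, 4.92, and 71.6 CPM in *Ebf2* E165X/+ mice. As for *Esrrg*, the library rich in muscle markers was the highest and the other *Ebf2* E165X/+ libraries the lowest. Its log2 fold change was −0.48 (SE 0.883, edgeR adjusted *P* = 0.901) over 6 libraries and −2.60 (SE 0.246, edgeR adjusted *P* = 0.0469) without the third *Ebf2* E165X/+ mouse. *Cpt1a*, the form of liver and white fat, had 80.4, 84.1, and 86.8 CPM in *Ebf2*+/+ mice and 115, 105, and 94.1 CPM in *Ebf2* E165X/+ mice (log2 fold change 0.32, SE 0.0902, edgeR adjusted *P* = 0.783).

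Of 42 mitochondrial genes listed as targets of ERR and PGC1, 37 were lower over 6 libraries (background 47.9%), 21 of them at an unadjusted *P* under 0.05 (background 3.09%). Without the third *Ebf2* E165X/+ mouse, all 42 were lower (background 51.1%) and 39 reached that level (background 3.54%), with a median log2 fold change of −0.50. Of the 18905 genes with 10 or more counts in each library, 924 were lower at that level. All 16 skeletal muscle markers were also lower in this fit (median −1.02), and the part of muscle RNA in the 42 genes was not tested. *Etfdh*, *Etfa*, and *Etfb*, which pass electrons from fatty acid oxidation to the respiratory chain, had log2 fold changes of −0.58 (SE 0.091), −0.48 (SE 0.0851), and −0.60 (SE 0.103), each without overlap of the genotypes. *Cox6a1*, a subunit of cytochrome c oxidase in tissues other than muscle, had 212, 212, and 179 CPM in *Ebf2*+/+ mice and 141, 128, and 118 CPM in *Ebf2* E165X/+ mice (log2 fold change −0.64, SE 0.108, edgeR adjusted *P* = 0.377). The most abundant gene of the list, *Atp5b* of the ATP synthase, overlapped, with 1219, 1135, and 1465 CPM in *Ebf2* E165X/+ mice and 1451 CPM in the lowest wild-type mouse. *Slc25a4*, the ADP/ATP carrier of muscle and heart, reached 846 CPM in the third *Ebf2* E165X/+ mouse, against 180 to 292 CPM in the other 5.

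Of 36 adipocyte genes listed as targets of *Pparg*, 34 were lower (background 47.9%), 9 of them at an unadjusted *P* under 0.05 (background 3.09%), and 12 were lower without overlap of the genotypes (background 6.78%). Of the white adipocyte markers, some of which are also in this list, 8 of 10 were lower. Their median was −0.27 over 6 libraries and −0.13 without the third *Ebf2* E165X/+ mouse. Because genes are shared, the markers are not a separate set, and their values in part restate those of the list. The part of adipocyte content in the list was not tested. *Gk*, which returns glycerol to triglyceride synthesis and is also listed with the brown fat markers, had 13.5, 15.2, and 13.1 CPM in *Ebf2*+/+ mice and 9.24, 9.43, and 9.04 CPM in *Ebf2* E165X/+ mice (log2 fold change −0.59, SE 0.102, edgeR adjusted *P* = 0.377). The spread within each genotype was small beside this gap. *Agpat2*, an acyltransferase of triglyceride synthesis, and the glycerol phosphate dehydrogenases *Gpd1* and *Gpd2* had log2 fold changes of −0.84 (SE 0.248), −0.65 (SE 0.224), and −0.65 (SE 0.209). *Scd1*, the fatty acid desaturase with the most counts of the list, was at 15432 ± 3480 and 8901 ± 770 CPM (SD, n = 3 mice) without overlap. Without the third *Ebf2* E165X/+ mouse, the median of this list was −0.17 and 30 of its genes were lower.

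**Figure D4:**
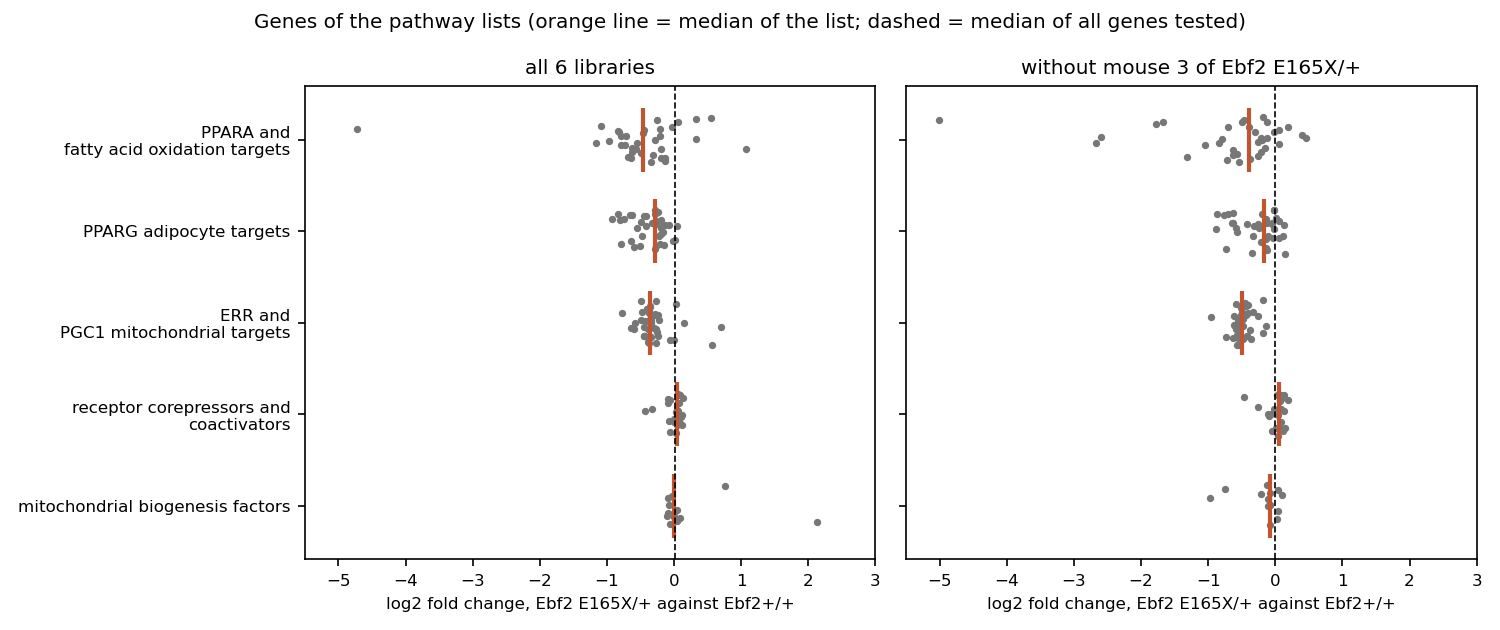
Log2 fold changes of *Ebf2* E165X/+ against *Ebf2*+/+ mice for every gene of 5 pathway lists (grey points), with the list median (orange line) and the median of all genes tested (dashed line), over 6 libraries on the left and without the third *Ebf2* E165X/+ mouse on the right. The 3 target lists lie to the left of the dashed line in both panels, with medians of −0.46, −0.28, and −0.36 on the left and −0.39, −0.17, and −0.50 on the right.

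The general cofactors of nuclear receptors, 23 genes with *Nrip1* among them, had 8 lower (background 47.9%) and 15 higher, and 2 were lower at an unadjusted *P* under 0.05 (background 3.09%), while 4 were lower without overlap of the genotypes (background 6.78%). The coactivator gene *Ncoa1* and the deacetylase gene *Hdac3* were among these 4, with log2 fold changes of −0.088 (SE 0.0612) and −0.065 (SE 0.0615). The others were *Prdm16*, a coregulator of brown and beige fat, at 18.2 ± 1.47 and 14.5 ± 1.12 CPM (log2 fold change −0.32, SE 0.103, edgeR adjusted *P* = 0.783), and *Lpin1*, a phosphatase of lipid synthesis that also acts with PGC1-alpha, at 226 ± 49.99 and 167 ± 8.78 CPM (−0.43, SE 0.158, edgeR adjusted *P* = 0.783; SD, n = 3 mice). Both were lower in all *Ebf2* E165X/+ mice. The median of the cofactor list was 0.057, with 7 genes lower, when the third *Ebf2* E165X/+ mouse was left out. *Ncor1*, the most abundant corepressor gene, and the coactivator genes *Ncoa3* and *Tbl1xr1* had log2 fold changes of 0.034 (SE 0.106), 0.11 (SE 0.073), and 0.12 (SE 0.0752). Over 6 libraries, none of 14 factors of mitochondrial biogenesis reached an unadjusted *P* under 0.05 in edgeR, and none was called by DESeq2. Without the third *Ebf2* E165X/+ mouse, 10 of the 14 were lower (median −0.082, background 51.1%) and 2 were lower at that level (background 3.54%), the kinase subunit *Prkaa2* at −0.76 (SE 0.135) and the mitochondrial transcription factor *Tfb2m* at −0.21 (SE 0.0742). *Prkaa2* had 132 CPM in that mouse and 17.7 to 36.4 CPM in the other 5. *Mapk14*, the p38 kinase gene with the most counts of that list, was at 119 ± 8.48 and 119 ± 14.9 CPM, and the energy-sensing kinase subunit *Prkaa1* at 80.4 ± 3.86 and 74.4 ± 7.63 CPM, both with overlap of the genotypes. *Atf2*, a factor that p38 acts on, was at 67.4 ± 1.22 and 63.1 ± 1.91 CPM, lower without overlap (SD, n = 3 mice; background 6.78%). *Nrf1*, whose binding motif is the one found before *Ppara*, was at 22.9 ± 0.457 and 24.3 ± 0.427 CPM (SD, n = 3 mice). This was higher without overlap (background 6.66%), with a log2 fold change of 0.088 (SE 0.069, edgeR adjusted *P* = 0.783). A link between *Nrf1* and *Ppara* was not tested. *Ppp1r3a*, a glycogen regulator of muscle in that list, reached 107 CPM in the third *Ebf2* E165X/+ mouse and was at 1.99 to 14.2 CPM in the other 5.

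Of 16 brown and beige adipocyte markers, 14 were lower (background 47.9%) beside *Ppara* and *Ppargc1b*. The others were *Tmem26*, a surface marker of beige cells, with a log2 fold change of 0.19 (SE 0.147), and *Zic1*, a marker of classical brown fat, which had 2.39 CPM in the third *Ebf2* E165X/+ mouse and at most 0.361 CPM in the other 5. The median log2 fold change of the list was −0.80, with 9 genes lower at an unadjusted *P* under 0.05 (background 3.09%), and it was −1.20 without the third *Ebf2* E165X/+ mouse, where 11 reached that level (background 3.54%). *Cidea* fell in *Ebf2* E165X/+ tissue and was the gene of these lists called by edgeR over 6 libraries (log2 fold change −3.24, adjusted *P* = 0.00462). *Pank1*, a kinase of coenzyme A synthesis, and *Otop1*, a proton channel, had log2 fold changes of −1.11 (SE 0.118, edgeR adjusted *P* = 0.101) and −1.65 (SE 0.223, edgeR adjusted *P* = 0.229), and for *Ucp1*, the uncoupling protein of brown fat, the value was −5.83 (SE 0.467, edgeR adjusted *P* = 0.0596). With the third *Ebf2* E165X/+ mouse left out, edgeR called 11 of the 32108 genes tested. Among the genes of these lists it called *Cidea*, *Ucp1*, *Pank1*, and *Cpt1b*, with adjusted *P* values of 0.000703, 0.0132, 0.0132, and 0.0469. Summed, the markers took 0.0503%, 0.0627%, and 0.0572% of counts in *Ebf2*+/+ libraries and 0.0341%, 0.0288%, and 0.0328% in *Ebf2* E165X/+ libraries. *Cpt1b* and *Cox7a1*, which are among them, were highest in the third *Ebf2* E165X/+ library, rich in muscle markers, at 71.6 and 21.7 CPM. The part of muscle RNA in its sum was not tested. *Adrb3*, the adrenergic receptor of fat cells, had the most counts of the 16 markers, and none was at 0 in every library. The part of a smaller number of such cells in the levels of *Ppara* and *Ppargc1b* was not tested.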

How the data were processed

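RNA-seq was available for 6 IWAT libraries, 1 per mouse, grouped by genotype from the sample labels. The deposited values are expected counts per gene, estimated by the authors without library scaling. Rounding changed none of the 332946 values, which were already whole. The submitters' processing notes name cutadapt 4.8, STAR 2.7.8a, RSEM 1.3.3, and build GRCm38. The 32664 genes that had 1 count or more somewhere were tested in R 4.3.3 with edgeR 4.0.16 (TMM, glmQLFit, glmQLFTest, genotype as the only term), with Benjamini-Hochberg adjustment over all of them. The study used DESeq2, which was run as an alternative (1.42.0; 16078 genes received an adjusted *P*), as was limma-voom 3.58.1. The steps were tested on simulated data. Total counts per library were 106820505 to 135039488. The labels do not say that replicate numbers mark litters or batches. The *P* values of edgeR weigh the genotype difference against variation between these mice, estimated with information shared across genes.

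The genes, pathway lists, and markers were chosen with earlier results of these data known. Named genes are the 10 genes of the group and *Ebf2*, and, for the pathway and brown fat lists, the 4 with the smallest *P* and the one with the most counts. Although the rule was written for all lists, the markers of other cell types are given mainly as counts. *Cpt1a*, *Cpt1b*, *Slc25a4*, *Rxrb*, *Prkaa2*, *Tfb2m*, *Ncoa1*, *Hdac3*, *Tmem26*, *Zic1*, and the promoter motifs were added after values were seen. Positions come from GENCODE M21 and promoters from RefSeq (GRCm38.p6). Analyses and plots also used Python 3.11.15, numpy 2.4.6, pandas 2.3.3, and matplotlib 3.10.9.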

Additional observations from a re-analysis of the deposited data

How the results depend on the processing

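With edgeR, 3 genes of the whole table were called, and DESeq2 called 98, or 158 without the third *Ebf2* E165X/+ mouse, a fit added after the data were seen. With all mice, limma-voom called 4. With each mouse left out in turn, edgeR called 1 to 11. Among the 10 genes of the group, DESeq2 called 1, *Ppara*, at −1.47 with all mice and −1.53 without the third *Ebf2* E165X/+ mouse, and edgeR called 0 in every fit. Of the pathway list genes, DESeq2 called 16, or 22 without that mouse, limma-voom called 1, and edgeR called 0 to 1 with single mice left out. Over the 6 fits that left out 1 mouse, log2 fold changes from edgeR ran from −1.68 to −1.26 for *Ppara*, −0.81 to −0.20 for *Pparg*, 0.010 to 0.081 for *Ppard*, −0.13 to −0.033 for *Rxra*, −0.28 to 0.19 for *Rxrg*, −0.39 to −0.23 for *Esrra*, −0.84 to 0.24 for *Esrrg*, −0.36 to 0.0079 for *Ppargc1a*, −0.50 to −0.33 for *Ppargc1b*, and −0.26 to 0.098 for *Nrip1*. With the replicate number as a block, *Rxrg* turned to −0.0054. Without the first *Ebf2*+/+ mouse it was −0.050, and with DESeq2 without the third *Ebf2* E165X/+ mouse it was −0.29. The cause of these turns was not tested. Deviations of same-numbered mice correlated at 0.153, −0.278, and −0.162 across genes, and those of differently numbered mice at −0.317 to 0.395. With 3 mice per genotype, these values cannot show whether the replicate numbers pair the mice. The block left 0 genes of the group called. Size factors of DESeq2, stricter or no filters, and leaving out mitochondrially encoded or muscle marker genes changed no direction among the 10 genes. The fewest counts of any of them in a library were 337, for *Esrrg*, and the part of depth was not tested.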

Other observations

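Markers of other cell types showed which cells the tissue held. Endothelial markers had a median log2 fold change of −0.22 with 7 of 8 genes lower, 3 of them without overlap (6.78% of genes with 10 or more counts in each library). Without the third *Ebf2* E165X/+ mouse, their median was −0.12 with 6 lower. The library of that mouse had the smallest share of endothelial markers, 0.0956% of counts against 0.128% to 0.135% in the others. All 12 B and T lymphocyte markers were higher in *Ebf2* E165X/+ mice, with a median of 0.26, 5 of them without overlap (6.66% of genes with 10 or more counts in each library) and none at an unadjusted *P* under 0.05 in edgeR. All 8 macrophage markers were higher, with a median of 0.12, as were 9 of 10 adipocyte progenitor markers (median 0.096) and 6 of 8 Schwann cell markers (median 0.092), with none of these 3 lists holding a gene at an unadjusted *P* under 0.05 in edgeR. For comparison, 17016 of all 32664 genes tested were higher. Without the third *Ebf2* E165X/+ mouse, the medians of these 3 lists were 0.085, 0.071, and 0.0058, in the same order. In that fit 4 of the 8 Schwann cell markers and 2 of the 10 progenitor markers were lower. All 8 erythroid markers were higher, 3 at an unadjusted *P* under 0.05 in edgeR (1.68% of all genes), with *Kel*, a blood group antigen gene, at 0.336 ± 0.0903 and 1.02 ± 0.472 CPM (SD, n = 3 mice), called by DESeq2 (adjusted *P* = 0.0161) and not by edgeR (adjusted *P* = 0.783). Summed, the erythroid markers took 0.297%, 0.212%, and 0.333% of counts in *Ebf2*+/+ libraries and 0.480%, 0.275%, and 0.191% in *Ebf2* E165X/+ libraries, so the first *Ebf2* E165X/+ library was the highest, the second lay within the wild-type range, and the third was the lowest of all. Of 8 keratinocyte and gland epithelium markers, 5 were lower (median −0.47), and together they took at most 0.0106% of counts in any library. The median turned to 0.19 over the 4 of them with 10 or more counts in each library. White adipocyte markers had a median of −0.27, with 8 of 10 lower and none at an unadjusted *P* under 0.05 in edgeR.

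Over the 6 libraries, the genes with levels most like those of *Ppara* (log2 CPM, over the 18905 genes with 10 or more counts in each library) were *Zfp964*, *Trpc6*, and *A730061H03Rik*, with Pearson correlations of 0.986, 0.982, and 0.982. For *Ppargc1b* they were *Rgs5*, *Tbx5*, and *Hpcal4* (0.986, 0.986, and 0.985), and for *Esrrg* they were *Rabggtb*, *Zfp109*, and *Ubac2* (0.990, 0.987, and 0.984). These are descriptions over 6 libraries of both genotypes, which also differed in their shares of muscle and adipocyte markers. The genes were picked as the highest of 18905, and *Ppard*, close in both genotypes, likewise reached 0.995 with *Guca1a*.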
